A study of Mus musculus with 7 samples.

Results

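Chromatin accessibility was examined around 9 genes of the bone morphogenetic protein (BMP) and activin pathways in developing mouse tooth tissue. The genes were the ligands Bmp2, Bmp4, Bmp7 and Inhba, the extracellular antagonists Nog and Fst, the membrane pseudoreceptor Bambi, and the BMP target genes Id1 and Id3. They were chosen by name, as 9 of the 20665 autosomal protein-coding genes of the RefSeq table, and each was read over a window of its gene body and 100 kb on either side (mouse build GRCm38, also called mm10). The assay was ATAC-seq in its Omni-ATAC form: a transposase inserts sequencing adapters where nucleosomes leave DNA free, and fragments accumulate as peaks over accessible sites. The data were 7 peak lists, 1 per library. The embryonic group held 2 libraries of ectoderm from the first pharyngeal arches of embryos at day 11.5 (E11.5), a sheet lifted from the mesenchyme after digestion with Dispase II. A sorted group held 2 libraries of Sox2-positive cells from the labial cervical loop of the lower incisor at postnatal day 2 (P2), taken by flow cytometry from Sox2-GFP mice, in which the endogenous Sox2 promoter drives the green fluorescent protein; the labels call these cells DESC. The whole lower incisor, lower first molar and upper first molar at P2 gave 1 library each, with no replicate, and whole teeth contain epithelium, mesenchyme and other cells together. The labels give no strain, sex or treatment, and no other genotype than the reporter. Whether the replicates came from separate animals is not stated.

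BMPs and activins are secreted dimers of the TGF-beta family. BMPs signal through receptor kinases to SMAD1, SMAD5 and SMAD9, and activins to SMAD2 and SMAD3, which enter the nucleus with SMAD4. Noggin (Nog) binds BMPs and follistatin (Fst) binds activins and some BMPs outside the cell, while BAMBI resembles a type I receptor but lacks the kinase. Id1 and Id3 encode inhibitors of helix-loop-helix transcription factors and are standard direct BMP targets. In teeth, BMP4 and activin A (the dimer of the Inhba product) are among the signals between epithelium and mesenchyme during early development. In the mouse incisor a network of BMP, activin and follistatin bears on where the labial cervical loop keeps its stem cells and where enamel is made.

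The lists held 80850 and 49719 autosomal peaks in the ectoderm libraries, 41829 and 38326 in the Sox2-positive libraries, 62074 in the incisor, 68877 in the lower molar and 67193 in the upper molar. The number of peaks in a list moves with sequencing depth, which peak lists do not record, so each count was also made with the 38000 autosomal peaks of each list that had the smallest p-values (the equal lists). The 9 windows held 145 and 92 peaks in the ectoderm libraries, 102 and 92 in the sorted cells, 129 in the incisor, 145 in the lower molar and 136 in the upper molar. With equal lists they held 71 and 75 in the ectoderm libraries, 96 and 91 in the sorted cells, 91 in the incisor, 84 in the lower molar and 80 in the upper molar. The median over all genes was 6 peaks per window in each equal list, so the ectoderm libraries had the fewest member peaks at matched list length. That is a count of peaks and not of open length. With all peaks the median member peak was 889 bp wide in ectoderm replicate 2 and 525 to 670 bp in the other libraries. Over all peaks of each list the median was likewise highest in ectoderm replicate 2, at 646 bp, against 486 to 574 bp in the other libraries. By length under equal-list peaks, Bmp4, Bmp7, Id1 and Id3 had more in ectoderm than in the sorted cells, Inhba and Bambi had less, and the rest overlapped. How many of all genes were so ordered by length is not given here. As a check of tissue identity, a peak within 1 kb of the start site was found for 5 and 6 of 7 epithelial marker genes in ectoderm and for 6 and 6 in the sorted cells, Krt5, Krt14 and Cdh1 among them in all 4 libraries. The incisor had 5, the lower molar 6 and the upper molar 6, so these counts did not set the tissues apart. Of all genes 52.9% had such a peak in all 7 libraries, and the share per library is not given here. The mesenchymal list also had such peaks: 4 and 4 of 8 markers in ectoderm, 7 and 6 in the sorted cells, 7 in the incisor, 7 in the lower molar and 8 in the upper molar. Pdgfra had a start-site peak in both Sox2-positive libraries and in neither ectoderm library, and Col3a1 in none of these 4. Of 4 blood markers 1 had a start-site peak in each library, and of 4 endothelial markers 1 to 3. An open start site does not require expression, and the part of mesenchymal cells in any P2 result given here was not tested.

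Promoter sequences were found in the RefSeq table (build GRCm38.p6) for 3 members, and they are shown because the start regions they cover were among the sites open in every library. Each runs from 250 bases before to 50 bases after the annotated start, 5′ to 3′ on the gene's strand, in lower case. Capitals mark exact matches on either strand to 1 of 3 short motifs: GGCGCC, a GC-rich SMAD1 and SMAD5 element, CAGAC, which holds the SMAD-binding core, and TATAAA, the TATA box.
Id3 promoter, chr4:136143572-136143871, plus strand: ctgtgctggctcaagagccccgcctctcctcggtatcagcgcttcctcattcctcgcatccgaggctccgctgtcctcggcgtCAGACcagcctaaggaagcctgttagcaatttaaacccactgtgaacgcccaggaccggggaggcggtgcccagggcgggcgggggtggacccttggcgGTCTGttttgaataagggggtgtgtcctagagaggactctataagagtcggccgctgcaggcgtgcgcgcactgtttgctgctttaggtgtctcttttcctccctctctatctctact
Inhba promoter, chr13:16011601-16011900, plus strand: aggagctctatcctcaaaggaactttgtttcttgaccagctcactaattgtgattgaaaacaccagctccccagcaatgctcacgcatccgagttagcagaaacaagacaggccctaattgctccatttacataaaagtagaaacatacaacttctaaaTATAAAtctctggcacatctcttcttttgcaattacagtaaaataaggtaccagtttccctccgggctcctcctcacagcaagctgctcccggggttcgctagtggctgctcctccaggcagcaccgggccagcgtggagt
Bmp4 promoter, chr14:46390620-46390919, minus strand: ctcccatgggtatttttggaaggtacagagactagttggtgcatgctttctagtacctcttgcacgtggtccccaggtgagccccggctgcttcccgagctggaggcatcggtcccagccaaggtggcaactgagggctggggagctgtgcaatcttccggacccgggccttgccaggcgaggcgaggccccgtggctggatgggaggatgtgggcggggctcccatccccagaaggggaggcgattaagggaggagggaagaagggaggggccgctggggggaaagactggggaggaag
Id3 held 2 CAGAC matches, at bases -167 and -68 from the start, the -68 match on the opposite strand. CAGAC was found in 48.4% of 20085 promoters of the same length. Inhba held 1 TATAAA, at base -91, a motif found in 12.7% of promoters. None of the 3 held GGCGCC, found in 15.8%. The GC content was 64.0% for Bmp4, 60% for Id3 and 47.7% for Inhba, against a median of 57% over all promoters. All 300 bases of the Id3 and Bmp4 promoters lay under a peak in each of the 7 libraries. The Inhba promoter was covered only in its downstream part, over 78 to 254 of its 300 bases.

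A start-site peak was called where a peak summit lay within 1 kb of the promoter-table start, or, for the 6 members without an entry, of either end of the gene. By this rule 6 members (Bmp2, Bmp4, Bmp7, Inhba, Fst and Id3) had a start-site peak in all 7 libraries, where 52.9% of all genes did. With equal lists it was 5 of the 9 by the loss of the Bmp2 peak in the upper molar, where the share of all genes was 48.9%. The 3 others were missed for the place of the summit and not for want of a peak. The broad Nog peak reached over the gene's higher-coordinate end in every library, but its summit stood 1003 to 1016 bp away in 6 of them. In the upper molar the Bambi summit stood 2211 bp from the lower-coordinate end and the Id1 summit at -1049 bp, though each end was under the peak. With a limit of 2.5 kb all 9 members had a start-site peak in all 7 libraries, where 57% of all genes did, and with 500 bp 5 members did, without Inhba, where 46.9% of all genes did.

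**Figure D1:**
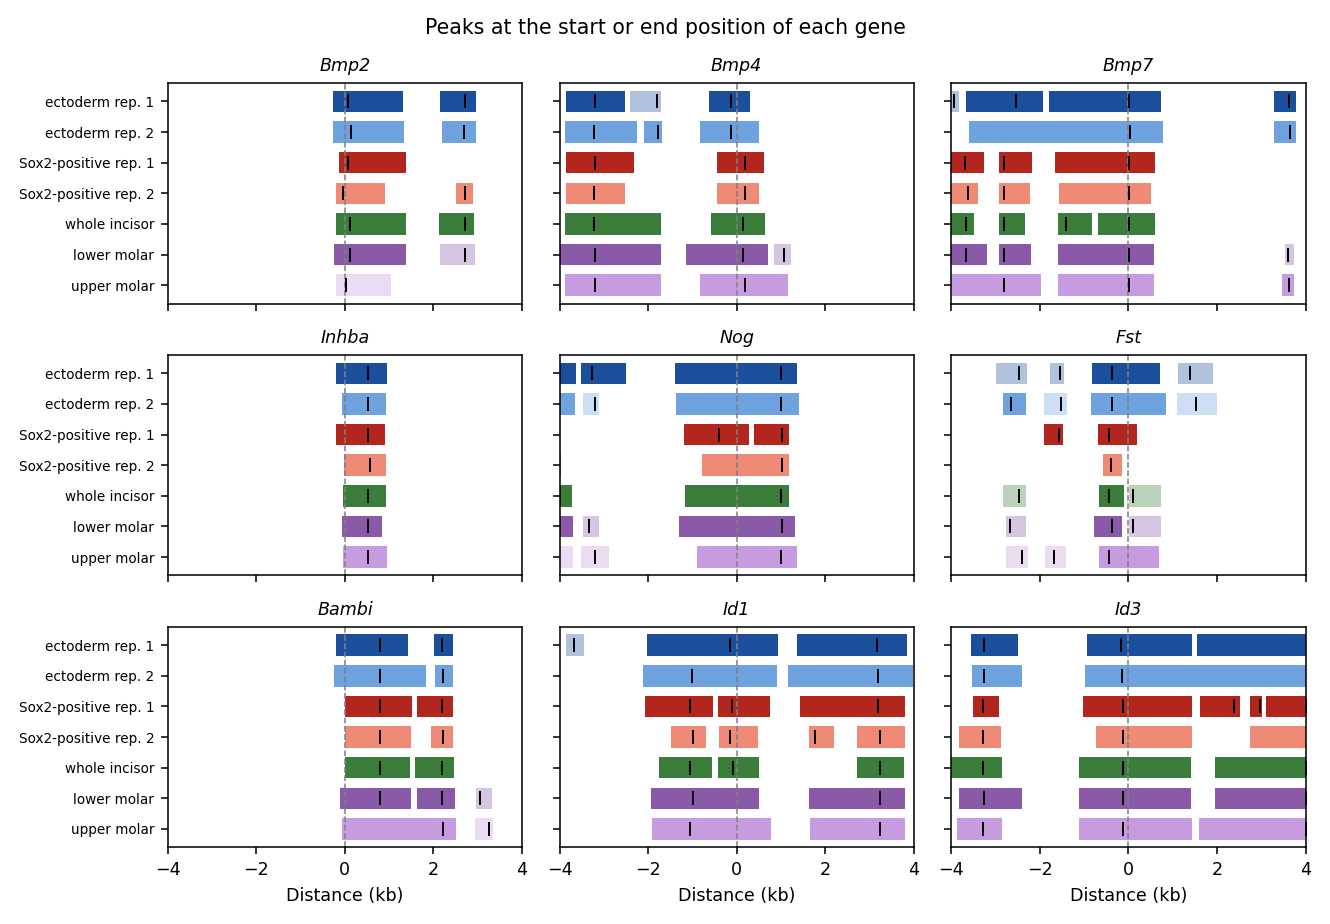
Peaks within 4 kb of a start or end position of each member, 1 row per library: the RefSeq promoter-table start for Bmp4, Inhba and Id3, the lower-coordinate gene end for Bmp2, Bambi and Id1, and the higher-coordinate end for Bmp7, Nog and Fst. Bars are peaks (pale where outside the 38000 peaks of the equal list), ticks are summits, and the x axis is distance in kb toward higher coordinates. The Bmp4 summits lie to the left of the start in both ectoderm libraries and to the right in the 5 P2 libraries, and the Id3 peak is broad in all 7.

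The start regions of the ligands differed in where their summits lay and in how strong the peaks were within their lists. At Bmp4 the summit lay at -137 bp from the start, toward lower coordinates, in both ectoderm libraries. It lay toward higher coordinates in the P2 libraries, by 178 bp in both Sox2-positive libraries, 153 bp in the incisor, 141 bp in the lower molar and 178 bp in the upper molar. Because Bmp4 is on the minus strand, the ectoderm summit was inside the transcribed gene and the P2 summits were upstream, within the promoter printed above, and the groups did not overlap. The deposited signal of this peak, the authors' area under the significance curve, was at percentile 76.8 and 68.4 of the ectoderm lists, 92.2 and 88.5 of the Sox2-positive lists, 93.1 of the incisor list, and 98.1 and 98.2 of the molar lists. A percentile ranks a peak within its own list only and shows no change between lists of different length. At Inhba the summit stood 526 to 576 bp downstream of the start in all 7 libraries, at percentiles 75.6 to 88.3. At Bmp7 the summit was 15 to 35 bp from the higher-coordinate end of the gene in all 7 libraries, at percentiles 87.6 to 99.7. The Bmp2 start peak had the lowest rank among the ligands in the upper molar, at percentile 61.8, and reached 86.7 in ectoderm replicate 1.

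Among the antagonists and targets, the Fst start peak stood lowest. Its signal percentile was 85.1 and 78.0 in ectoderm, 61.5 and 8.8 in the sorted cells, 33.7 in the incisor, 42.7 in the lower molar and 74.6 in the upper molar. For the incisor and the lower molar these are values of the peak nearest the gene end, beside a larger peak of the same start region at percentiles 59.4 and 67.4. The 2 Sox2-positive libraries differed widely at this site, and replicate 2 fell to near the floor of its list. The Bambi start peak was at percentiles 95.7 to 99.6 in all 7 libraries. Id3 had a strong start region in every library, with summits at -164 to -122 bp from the start, signal percentiles from 98.0 up to the top of the list and a start peak of 2160 bp in Sox2-positive replicate 2 to 6238 bp in ectoderm replicate 2. At Id1 the peak over the lower-coordinate end was at percentile 99.9 in both ectoderm libraries and at 86.4 to 99.3 in the P2 libraries. In ectoderm and the molars it was a single broad peak, whereas in Sox2-positive cells and the incisor it was split into a pair of peaks. The deposited signal sums over a peak's width, so whole and split peaks are not ranked alike.

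The windows differed widely among members. Bmp7 had the most peaks, 22 to 38 per window, in the longest window (272.3 kb, of which 72.31 kb is gene body). Id1 had 19 to 30 and Id3 16 to 28. These 3 were dense also per length: with equal lists Id1 had 8.45 to 10.94 peaks per 100 kb and lay above 96.6 to 98.2% of all genes, Bmp7 had 6.24 to 9.92 and lay above 88.8 to 98.4%, and Id3 had 6.45 to 8.93 and lay above 89.3 to 96.5%. The Id1 and Id3 windows also hold 4 and 3 other protein-coding genes (H13, Mcts2, Cox4i2 and Bcl2l1; Rpl11, E2f2 and Asap3), and the Bmp7 window holds Spo11, Rae1 and Rbm38, so not every peak there belongs to the member. The median over all genes was 4 others per window. Fst, with 1 to 6 peaks per window, was the sparsest, and with equal lists it had 0.48 to 1.45 peaks per 100 kb, above 15.0 to 31.4% of genes. Bmp2, Bmp4 and Inhba had no other protein-coding gene in their windows, and Nog, Fst and Bambi had 1 each (Ankfn1, Ndufs4 and Cul2).

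**Figure D2:**
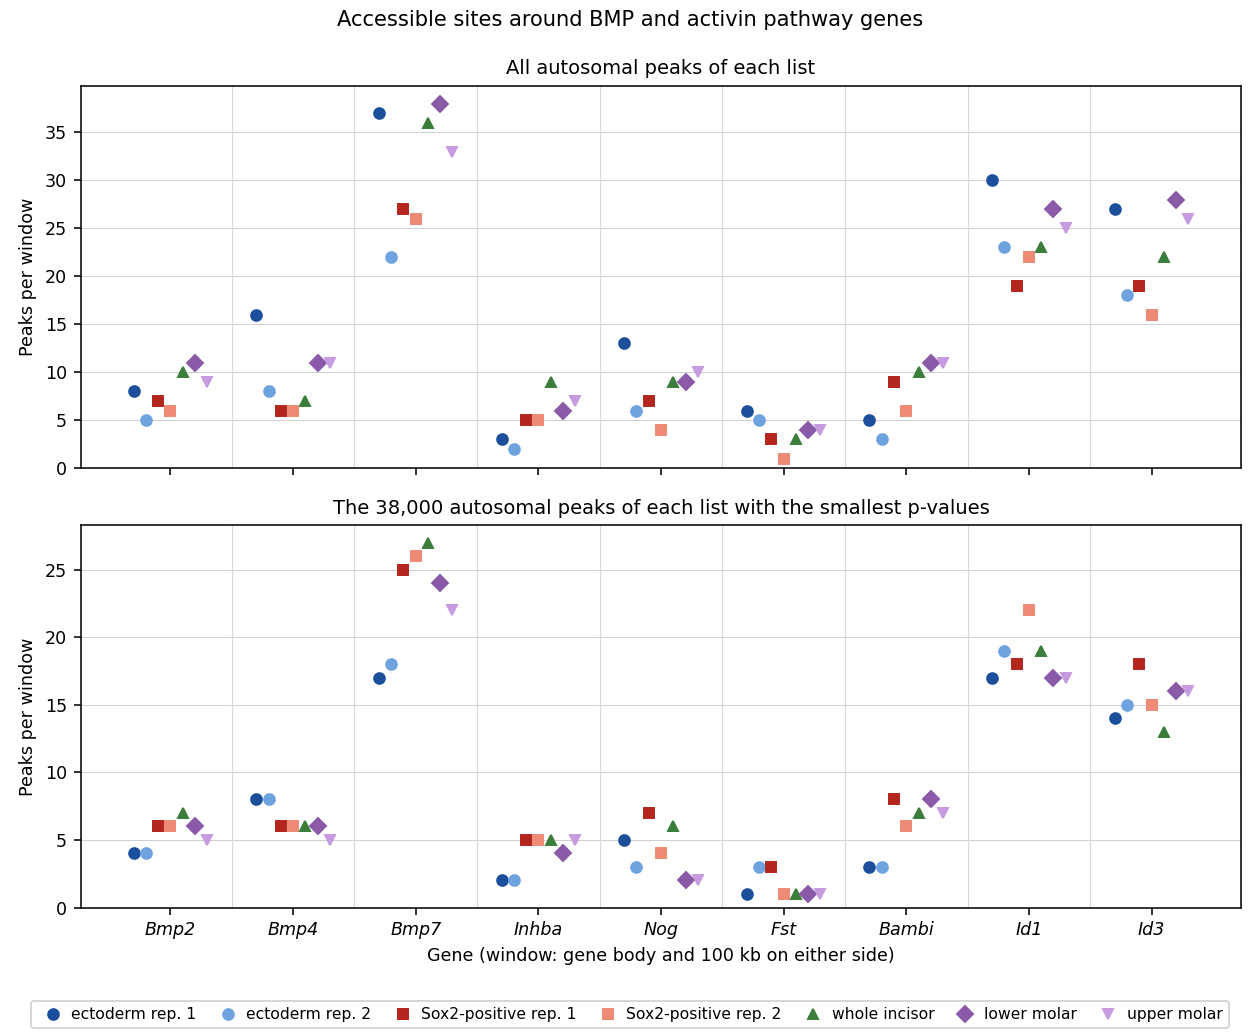
Peaks per window (gene body and 100 kb on either side) for each member, 1 point per library, with all peaks (top) and with 38000 peaks per list (bottom). With equal lists, both ectoderm points lie below all 5 P2 points for Bmp2, Bmp7, Inhba and Bambi and above them for Bmp4. How many of all genes have either order is not given here.

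The comparison of E11.5 ectoderm with sorted P2 Sox2-positive cells asks how accessibility differs between the embryonic tissue that gives rise to tooth epithelium and the labelled epithelial stem cells of the incisor. Inhba, which encodes the activin A subunit, had more peaks in Sox2-positive cells: 3 and 2 per window in ectoderm against 5 and 5, and 2 and 2 against 5 and 5 with equal lists. Bambi, the pseudoreceptor, had 5 and 3 in ectoderm against 9 and 6, and 3 and 3 against 8 and 6 with equal lists. The values did not overlap for either gene with either kind of list. They were the only 2 members with more peaks in both Sox2-positive libraries when all peaks were counted, where 1.92% of all genes were so ordered, in lists that are shorter for Sox2-positive cells. Within 50 kb of the genes only Bambi kept this order, and among peaks whose nearest gene was the member only Inhba did. The share of all genes under these settings is not given here. With equal lists Bmp2 and Bmp7 joined Inhba and Bambi. Bmp2 had 4 and 4 in ectoderm against 6 and 6, and Bmp7 had 17 and 18 against 25 and 26. That made 4 of 9 members, where 20.7% of all genes were so ordered. With equal lists chosen by signal it was 3, without Bmp2 (4 and 5 against 5 and 5), where 21.6% of all genes were so ordered. Some marker lists of other cell types moved the same way by peaks per window. With equal lists 5 of 8 mesenchymal and 3 of 4 blood markers had more in both Sox2-positive libraries and none more in both ectoderm libraries. Of 4 endothelial and 3 neural and glial markers 1 each had more in Sox2-positive cells and none more in ectoderm. By contrast 2 of 7 epithelial markers had more in ectoderm and none more in Sox2-positive cells. With all peaks 3 mesenchymal markers had more in Sox2-positive cells and 1 in ectoderm, and 1 blood marker had more in ectoderm. Of the other lists 5 epithelial, 2 endothelial and 2 neural and glial markers then had more in ectoderm, and none in Sox2-positive cells. The part of other cell types in these orders was not tested.

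Bmp4 was ordered the other way. It had 16 and 8 peaks in ectoderm against 6 and 6 in Sox2-positive cells, and 8 and 8 against 6 and 6 with equal lists. Fst had 6 and 5 against 3 and 1, and Id1 had 30 and 23 against 19 and 22, but with equal lists both overlapped, Fst at 1 and 3 against 3 and 1 and Id1 at 17 and 19 against 18 and 22. So 3 members had more peaks in both ectoderm libraries with all peaks, where 48.5% of all genes did, and 1 member, Bmp4, with equal lists, where 22.5% did. Which member that was depended on the choice of peaks: with equal lists chosen by signal Bmp4 overlapped (8 and 6 against 6 and 6) and Fst did not (4 and 4 against 3 and 1), where 21.8% of all genes had more in ectoderm. Nog and Id3 overlapped under both. The counts moved with single libraries: without ectoderm replicate 2, whose list is the shorter of its pair, 7 members had more peaks in ectoderm and 2 in Sox2-positive cells, without ectoderm replicate 1 it was 3 and 4, and without Sox2-positive replicate 1 it was 5 and 2. The share of all genes with a library left out is not given here, so these counts cannot be set against it. By length under peaks, Bambi had 2.78 and 3.26 kb in ectoderm against 6.32 and 4.48 kb, and Inhba 2.20 and 1.78 kb against 3.17 and 3.40 kb. Bmp7 went the other way by this measure with all peaks, with 30.67 and 25.21 kb in ectoderm against 19.94 and 16.30 kb in Sox2-positive cells, and also with equal lists, with 21.77 and 23.37 kb against 19.15 and 16.30 kb. Bmp7 therefore had fewer peaks in ectoderm at matched list length but more sequence under them. With equal lists Id1 (18.43 and 20.79 kb against 17.71 and 15.30 kb) and Id3 (18.16 and 19.64 kb against 15.30 and 15.04 kb) also had more length under peaks in ectoderm, and Bmp2 overlapped (3.23 and 3.04 kb against 3.73 and 2.91 kb). How many of all genes had such orders by length is not given here, so these cannot be set against it. With 2 libraries a group and no counts per library, none of these orders was tested.

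The whole-tooth libraries placed Inhba and Bambi with the sorted cells. Inhba had 9 peaks in the incisor, 6 in the lower molar and 7 in the upper molar, and with equal lists 5, 4 and 5, all above the 2 and 2 of ectoderm. Bambi had 10, 11 and 11, and with equal lists 7, 8 and 7, above the 3 and 3 of ectoderm. With equal lists Bmp7 had 27, 24 and 22, above the 17 and 18 of ectoderm, and Bmp2 had 7, 6 and 5, above the 4 and 4. Bmp4 with equal lists had 6, 6 and 5, level with the Sox2-positive cells. How many of all genes had both ectoderm libraries below, or above, every P2 library is not given here. Nog with equal lists had 6 in the incisor and 2 in each molar, against 5 and 3 in ectoderm and 7 and 4 in Sox2-positive cells, so that the molars stood below the other 5 libraries. That order was not kept with all peaks (9 in the incisor, 9 and 10 in the molars, 13 and 6 in ectoderm, 7 and 4 in Sox2-positive cells) or with equal lists chosen by signal (3 and 5 in the molars, 5 and 3 in ectoderm). None of the 3 whole-tooth groups has a replicate against which to set these differences.

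**Figure D3:**
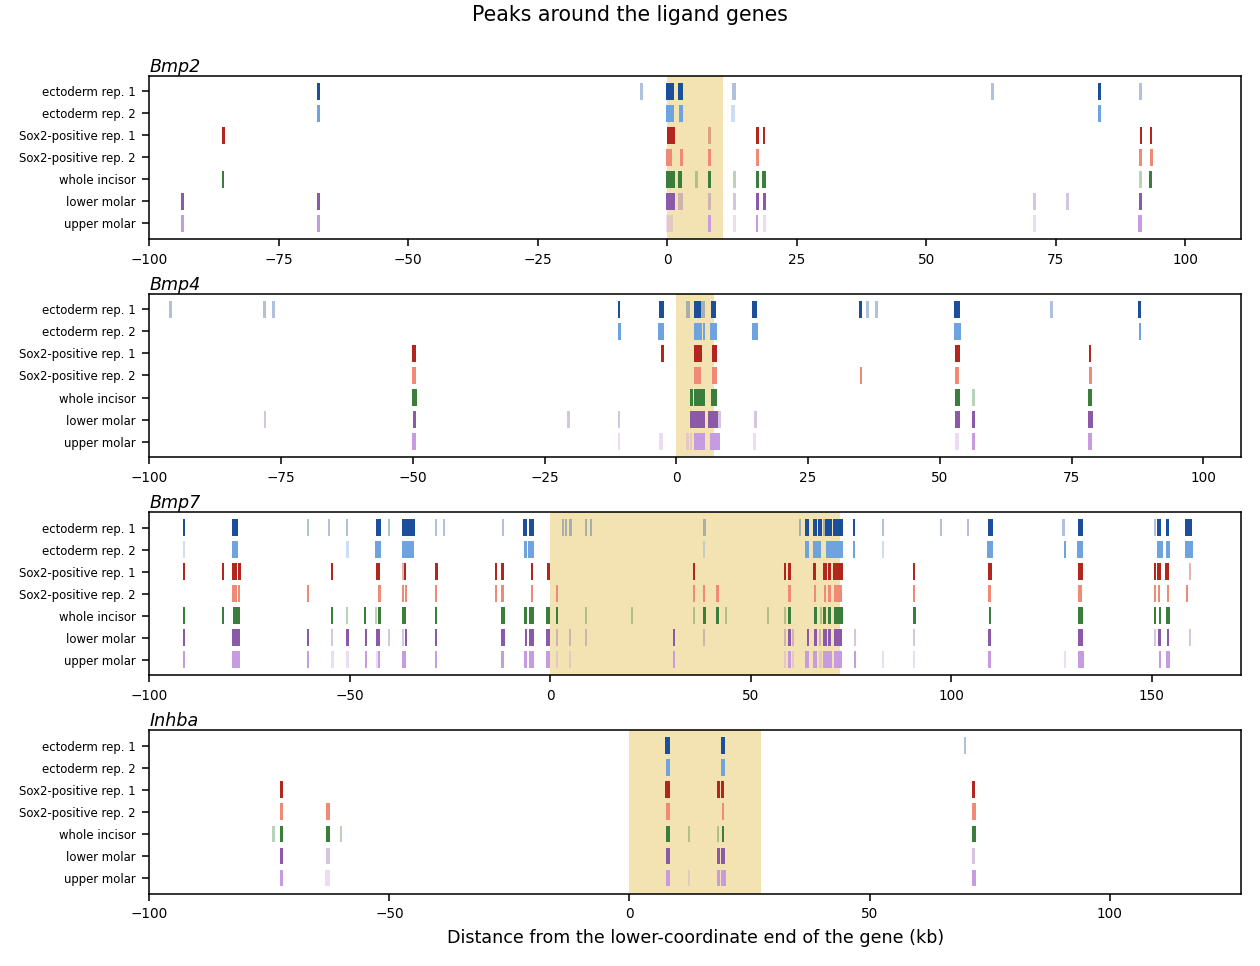
Positions of all peaks in the windows of the 4 ligand genes, 1 row per library; the x axis is distance in kb from the lower-coordinate end of the gene, shading marks the gene body, and pale bars lie outside the 38000 peaks of the equal list. Bars narrower than 0.5 kb are drawn 0.5 kb wide. At Bmp4 the P2 libraries share 1 site below and 1 far above the gene that both ectoderm libraries lack, and outside the Inhba gene body the peaks are those of P2 libraries, apart from 1 pale bar of ectoderm replicate 1.

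Single regions were then compared by merging the peaks of the 4 libraries wherever they shared at least 1 bp. The 9 windows held 181 such regions, of which 30 were shared by the ectoderm pair and absent from the Sox2-positive pair (16.6%, 95% Wilson interval 11.9 to 22.7%), against 23.1% of all autosomal regions. Another 21 were shared by the Sox2-positive pair and absent from the ectoderm pair (11.6%, interval 7.71 to 17.1%), against 7.78% of all regions. With equal lists the ectoderm-only regions were 16 of 130 (12.3%), against 18.4% of all regions, and the Sox2-positive-only regions 25 of 130 (19.2%), against 14.4%. These intervals cover the counting of regions only. The shares moved when a library was left out. The ectoderm-only share was 40.8% without ectoderm replicate 2, against 51.5% of all regions, and 23.6% without ectoderm replicate 1, against 33.6%. The Sox2-positive-only share was 20.0% without Sox2-positive replicate 2, against 14.7%, 18.6% without ectoderm replicate 1, against 13.2%, and 11.4% without ectoderm replicate 2, against 7.82%. Without Sox2-positive replicate 1 it was 16.1%, near the 15.3% of all regions. By member, Inhba and Bambi had no ectoderm-only region and 2 and 3 Sox2-positive-only regions, of 7 and 10 regions. Of the 3 at Bambi, that 61.15 kb below the gene was nearest Cul2. Fst had 2 ectoderm-only regions of 6 and no Sox2-positive-only region. Bmp2 had 3 of each, Bmp4 3 and 2, Bmp7 7 and 5, Nog 3 and 1, Id1 6 and 2, and Id3 6 and 3. With equal lists Fst had none of either kind.

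**Figure D4:**
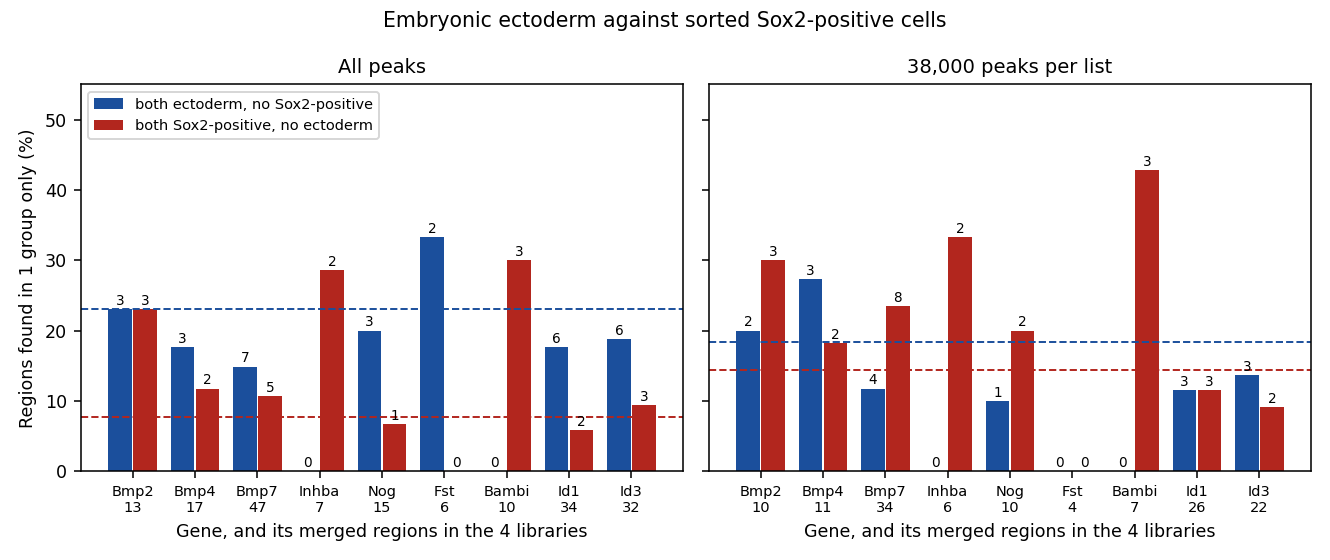
Share of each member's merged regions (y axis, percent) shared by the ectoderm pair and absent from the Sox2-positive pair (blue) or the reverse (red), with all peaks (left) and with 38000 peaks per list (right); numbers above bars are regions, numbers under the gene names are all merged regions, and dashed lines give the shares over all autosomal regions. Inhba and Bambi have red bars and no blue bar in both panels.

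The ectoderm-only regions with the highest signal rank were spread over Id1, Id3, Bmp4 and Bmp7. At Bmp4, chr14:46397911-46399000 lay 7.24 kb above the gene, on its upstream side, with deposited signals of 1771 and 1067 in ectoderm, none in Sox2-positive cells or the incisor, 363 in the lower molar and 366 in the upper molar. Inside the Bmp7 gene body, chr2:172931613-172932444 had signals of 1439 and 939 in ectoderm and 670 and 1270 in the molars. A neighbouring region, chr2:172934831-172935788, also in the gene body, had 1781 and 710 in ectoderm, 402 in the incisor, 355 in the lower molar and 642 in the upper molar. Above Id1, chr2:152744370-152745239 lay 6.96 kb from the gene, with 2168 and 1228 in ectoderm and 201 in the lower molar. The remaining pair had the highest ranks, were found in ectoderm alone and lay nearer to other genes: chr2:152827214-152828447, 89.8 kb above Id1 and nearest Bcl2l1, with signals of 2429 and 1739, and chr4:136220091-136221013, 74.7 kb above Id3 and nearest Asap3, with 2364 and 1191. Of the 30 ectoderm-only regions 18 had the member as the nearest gene, 3 touched the gene body, and the median distance from it was 40.0 kb.

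Of those 30 regions, absent from the sorted cells by the rule, 21 were open in 1 or more of the whole teeth (70.0%, Wilson interval 52.1 to 83.3%), whereas 34.8% of all ectoderm-only regions of the genome did. In the incisor alone 9 did (30.0%, interval 16.7 to 47.9%), against 13.4% of all such regions. With equal lists 6 of 16 had a peak in a whole tooth (37.5%, interval 18.5 to 61.4%), against 18.4%, and 2 of 16 in the incisor (12.5%), against 4.94%. All 7 such Bmp7 regions were open in at least 1 tooth, as were the Bmp4 region above and that in the Fst gene body (chr13:114456002-114456694, with 781 and 488 in ectoderm, 377 in the incisor, 321 in the lower molar and 619 in the upper molar). The Nog regions 37.31 kb above and 60.22 kb below the gene had no peak in any P2 library. Around the members both shares were above the genome's with either kind of list. The equal-list interval for a whole tooth began just above the genome's value, and that for the incisor (3.50 to 36.0%) held it.

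The Sox2-positive-only regions included distal sites of Bmp4, Inhba and Bambi that the whole teeth shared. At Bmp4, chr14:46333412-46334166, 49.36 kb below the gene, had signals of 1740 and 1300 in Sox2-positive cells, 2388 in the incisor, 976 in the lower molar and 1223 in the upper molar. On the other side, chr14:46461742-46462289, 71.07 kb above the gene, had 1105 and 984, then 2517, 2933 and 2865 in the 3 teeth. At Inhba, chr13:15931548-15932037, 72.22 kb below the gene, had 1223 and 600, then 770, 1325 and 1231. In the Bmp7 gene body, chr2:172927429-172928128 had 913 and 1033, then 861, 1580 and 1706. The highest ranks went to chr2:152705614-152706774, 29.48 kb below Id1 but nearest H13, and to chr18:3566294-3567673, 49.89 kb above Bambi, whose signals were 3022 and 3457 in Sox2-positive cells and 5082, 5745 and 5879 in the teeth. All 6 were found in each whole tooth. Over the 21 regions 20 had a peak in the incisor (95.2%), against 91.7% of such regions genome-wide, and the same 20 were open in 1 or more of the whole teeth (95.2%), against 96.1%. With equal lists 19 of 25 had a peak in the incisor (76.0%), against 78.6%, and 21 of 25 in at least 1 tooth (84.0%), against 87.9%, so the members stood near the genome's share. The exception with all peaks was chr2:172854179-172854657, 13.36 kb below Bmp7, with signals of 362 and 428 in the Sox2-positive libraries and no peak in the other 5.

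**Figure D5:**
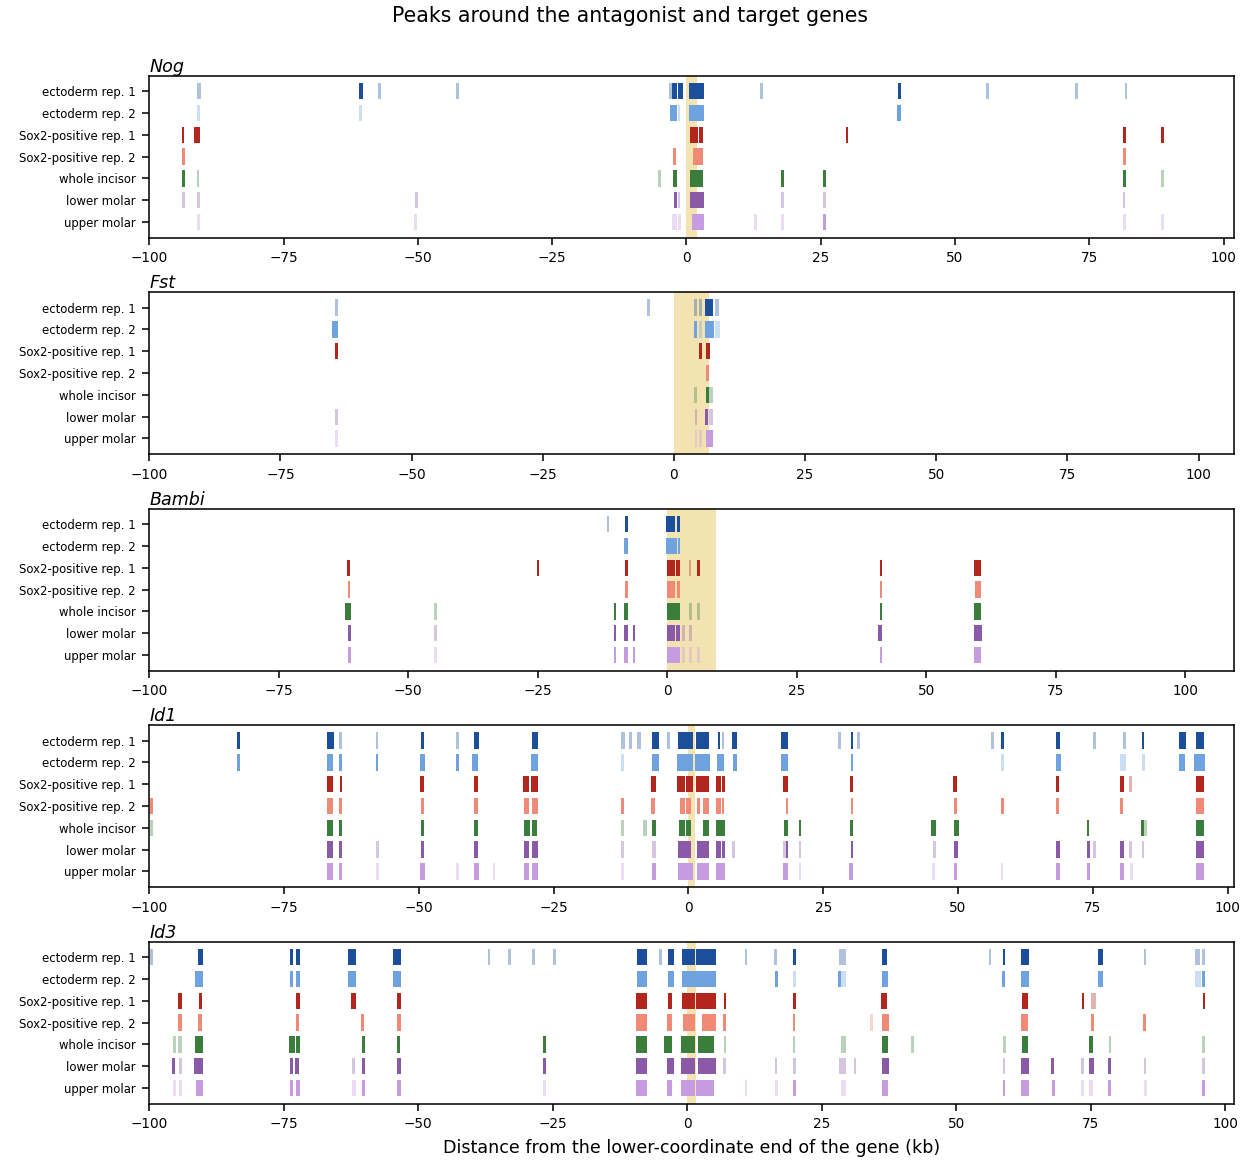
Positions of all peaks in the windows of Nog, Fst, Bambi, Id1 and Id3, drawn as in the map of the ligand genes (x axis, distance in kb from the lower-coordinate end of the gene; 1 row per library; shading, gene body). The 5 P2 libraries share 1 site below Bambi, nearest Cul2, and 2 sites above it that both ectoderm libraries lack. The Id1 and Id3 windows hold many sites found in all 7 libraries, some of them nearest other genes.

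Merging all 7 lists gave 213 regions in the member windows, of 128642 autosomal regions in all. A peak in all 7 libraries was found for 41 (19.2%, interval 14.5 to 25.1%), against 14.2% of all regions, and with equal lists for 36 of 142 (25.4%), against 19.2%. Where a peak had to cover 50% of the region the share was 9.86% (interval 6.54 to 14.6%), near the 8.53% of all regions. Among regions whose nearest gene was the member it was 16.3%, with an interval (11.1 to 23.3%) that held the 14.2% of all regions. The 41 common regions were wide (median 1541 bp), 19 lay within 10 kb of the gene body, and the median distance was 18 kb. The Id1 window had 12 of them, that of Bmp7 10 and that of Id3 9, whereas Bmp2, Nog and Fst had 1 each. Of the 41, 23 had the member as the nearest gene. Peaks in all 5 P2 libraries and no ectoderm library were found for 15 regions (7.04%, interval 4.31 to 11.3%), against 4.61% of all regions, and with equal lists for 12 (8.45%), against 6.29%. Their median distance from the gene body was 47.9 kb, and 3 of the 15 lay within 10 kb. Bambi had 3 of the 15, Nog and Fst none, and the other 6 members 2 each. Of the 15, 9 had the member as the nearest gene, and the region 61.03 kb below Bambi was nearest Cul2. The highest mean signal rank belonged to the region 49.76 kb above Bambi (in the 7-library merge chr18:3566165-3567701, mean percentile 98.1). Next came the region nearest H13 in the Id1 window (94.2) and the Bmp4 region 70.89 kb above the gene (chr14:46461555-46462478, 84.9). Regions of both ectoderm libraries and no other numbered 9 (4.23%, interval 2.24 to 7.83%), against 11.7% of all regions, and with equal lists 10 of 142 (7.04%), against 12.8%. Ectoderm replicate 1, the longest list, alone had 37 regions (17.4%), against 18.3% of all regions.

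The sorted cells come from the lower incisor, so their peaks were set against the whole incisor. Of the 73 member regions found in both Sox2-positive libraries, 3 had no incisor peak (4.11%), against 4.49% of all regions. These were the Bmp7 region 13.36 kb below the gene and 2 regions nearest Bcl2l1 in the Id1 window. With equal lists 8 of 71 had none (11.3%), against 13.6%. In reverse, 34 of 126 incisor regions had no peak in either Sox2-positive library (27.0%), against 33.7%, and with equal lists 12 of 90 (13.3%), against 16.9%. Near Bambi, chr18:3496641-3497206, 9.8 kb below the gene, had signals of 1040 in the incisor, 1069 in the lower molar and 843 in the upper molar and no peak in the sorted cells or ectoderm. Near Nog, chr11:89326071-89326539, 23.51 kb above the gene, had 730, 370 and 723 in the same teeth and no peak elsewhere. These 2 were chosen after their values were seen. Fewer sorted cells or shallower libraries cannot be told apart here from closed sites.

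The molars and the incisor are tooth types of different growth, the mouse incisor renewing through life and the molars not. Of 121 member regions found in both molars 25 had no incisor peak (20.7%), against 26.9% of all regions, and with equal lists 13 of 71 (18.3%), against 25.3%. Of 122 incisor regions 16 had no peak in either molar (13.1%), against 19.8%, and with equal lists 17 of 85 (20.0%), against 25.3%. Bmp2 had regions of both kinds. Its region chr2:133458308-133458962, 93.2 kb below the gene, had signals of 839 and 975 in the molars and no peak in any other library, and chr2:133466161-133466588, 85.57 kb below the gene, had 519 in the incisor and 211 in Sox2-positive replicate 1 alone. In the Bmp7 gene body chr2:172909458-172910053 had 830 in the incisor and 672 in Sox2-positive replicate 2. Further below Bmp7, chr2:172786334-172786725, at 81.29 kb, had 596 in the incisor and 287 in Sox2-positive replicate 1, whereas chr2:172807355-172807885, at 60.13 kb, had 976 and 837 in the molars, 308 in ectoderm replicate 1 and 309 in Sox2-positive replicate 2. The molar region with the highest rank, chr2:152816284-152817108 in the Id1 window, was nearest Bcl2l1 and had peaks in 6 libraries, with 1234 and 1476 in the molars and none in the incisor. Bmp4, Fst and Bambi had no incisor region that both molars lacked, but they had only 6, 2 and 9 incisor regions.

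The 40 other genes of the pathway were read the same way. With all peaks 18 of the 40 had more peaks in both ectoderm libraries and 2 in both Sox2-positive libraries, and with equal lists 4 and 12. Over all genes the shares were 48.5% and 1.92%, and 22.5% and 20.7% with equal lists. A start-site peak was found for 33 to 37 of the 40 in each library. All 6 SMAD transducers and all 5 further target genes (Id2, Id4, Msx1, Msx2 and Hey1) had a start-site peak in every library, also with equal lists. Of all genes 52.9% had one in all 7 libraries, and 48.9% with equal lists. The share of all genes per library is not given here. Of the 7 receptors 3 had more peaks in both Sox2-positive libraries with equal lists, and 1 had more in ectoderm, while with all peaks it was none and 3. With equal lists the BMP receptor genes Acvr1 and Bmpr1b showed opposite orders. Acvr1 had 4 and 5 peaks per window in ectoderm against 13 and 12 in Sox2-positive cells, and Bmpr1b had 10 and 10 against 3 and 6. Of the 13 inhibitors 5 had more in Sox2-positive cells with equal lists and none more in ectoderm, but with all peaks 2 and 6. Among the 5 were Fstl1, a follistatin-like gene, with 7 and 8 against 15 and 15, and the inhibitory SMAD gene Smad7 with 19 and 20 against 26 and 27. With all peaks Fstl1 (12 and 10 against 15 and 15) and Bmpr1b (24 and 13 against 3 and 6) kept their orders. Acvr1 then overlapped (16 and 7 against 13 and 12), and Smad7 had more in ectoderm (40 and 30 against 26 and 27). Those named here were chosen after their values were seen.

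Within this list, the gene most like each member was taken as that with the smallest summed absolute difference in peaks per window over the 7 libraries, with equal lists. Gdf5, which encodes a growth and differentiation factor of the BMP group, was the most like Bmp2 (summed difference 5) and the most like Bambi (7). Smad4 was the most like Bmp4 (6), Smad7 the most like Bmp7 (10), Bmp5 the most like Inhba (7), Grem1, a BMP antagonist gene, the most like Nog (9), and Bmp3 the most like Fst (5). The differences were largest for Id1 (Fstl3, 17) and Id3 (Inha, 18). The measure is not scaled to the number of peaks, which with equal lists was 17 to 22 per window for Id1 and 13 to 18 for Id3, against 1 to 3 for Fst. It therefore does not show which members have the closer neighbours. Likeness in these counts rests on the number of peaks per window and not on their positions.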

How the data were processed

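Each deposited list holds the peaks of 1 library. The submitters' processing notes name the peak caller Genrich, FastQC, Trimmomatic, Bowtie2 and deepTools and the build mm10. Versions, options, read filters and the shift for transposase cuts are not given in the sources used here. The values used were the deposited signal of each peak, at least 200 in every list, and the deposited −log10 p, from 2.56 to 17.8, neither of them normalized between libraries, so both were used within lists only, for ranks and for choosing peaks. Depth is unknown, as no reads are counted in the lists, and list lengths (38326 to 80850 peaks) move with it.

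Groups came from the sample titles. Members, lists and rules were chosen with earlier results of these data known. Peaks on the 19 autosomes were used. A peak belonged to a member if it lay in or within 100 kb of the gene body (RefSeq, GRCm38.p6). Regions are peaks merged over at least 1 shared bp; a region was in a group of 2 libraries if both had it and absent if neither did. Equal lists kept the 38000 peaks with the highest −log10 p, ties broken by signal. Start sites came from the RefSeq promoter table (16457 of 20665 genes, 3 of 9 members), otherwise from either gene end, since the gene table gives no strand. Named were the start region of each member, the 6 ectoderm-only and 6 Sox2-positive-only regions, and the 3 each of the incisor, both molars and all P2 libraries, with the highest mean signal percentile; further regions are said to be chosen later. No test was made, since at most 2 libraries form a group. Shares carry 95% Wilson intervals. Scripts (Python 3.11.15, pandas 2.3.3, numpy 2.4.6, scipy 1.17.1) were tested on simulated data. Alternatives were equal lists by p or signal, 50 kb windows, nearest gene only, 50% cover, 200 bp around summits, other start-site limits, and leaving out each replicate. Of the epithelial marker list, 1 gene is not reported here.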

Additional observations from a re-analysis of the deposited data

How the results depend on the processing

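With 38000 peaks per list, chosen by p and by signal in turn, the Sox2-positive-only share of member regions moved from 11.6% to 19.2% and 19.8%. The share of incisor regions that Sox2-positive cells lacked moved from 27.0% to 13.3% and 13.5%, and the share with a peak in all 7 libraries from 19.2% to 25.4% and 27.1%. Over all autosomal regions the shares moved the same way. The first went from 7.78% to 14.4% and 14.5%, the second from 33.7% to 16.9% and 16.1%, and the third from 14.2% to 19.2% and 20.2%. The member share with a peak in all 7 libraries was 9.86% when a peak had to cover 50% of the region, against 8.53% of all regions, and 11.9% with 200 bp around summits, against 9.80%, both near the share of all regions. With 50 kb windows the share of molar regions that the incisor lacked was 14.1%, from 20.7%, against 26.9% of all regions. Members with more peaks in both ectoderm libraries numbered 3, and 1 with equal lists, Bmp4 by p and Fst by signal. Members with more peaks in both Sox2-positive libraries numbered 2, then 4 with equal lists by p, and 1 each with 50 kb windows and with peaks nearest the member only. Leaving out each replicate in turn gave ranges of 20.0 to 40.8% for the ectoderm-only share, against 26.1 to 51.5% of all regions. For the Sox2-positive-only share it gave 11.4 to 20.0%, against 7.82 to 15.3%. Incisor regions that Sox2-positive cells lacked were 38.3% without Sox2-positive replicate 1, against 44.2% of all regions, and 34.1% without replicate 2, against 44.8%. For the reverse the shares were 11.2% without replicate 1, above the 7.6% of all regions, and 12.6% without replicate 2, below the 15.8%. Members higher in ectoderm numbered 3 to 7 and those higher in Sox2-positive cells 2 to 4. For member counts with 50 kb windows, nearest peaks only or a replicate left out, the share of all genes is not given here. Leaving out a library asks for a peak, or for its absence, in 1 library in place of 2; for the other moves the cause was not tested. No paired analysis was possible because the results are counts over merged peak lists and come from no test. Depth is unknown, so an absent peak may be a site below detection in a shallow library.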
